A study of Mus musculus with 2 samples.

Results

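The genes described here encode the kinetochore, the centromere and the spindle checkpoint. They were chosen by symbol, as a list of 37 genes, and all 37 were found among the 53241 distinct symbols of both liver libraries. The liver of 1 iFIRKO sample was compared with that of 1 control sample by mRNA sequencing. iFIRKO mice carry Adipoq-CreERT2, a tamoxifen-inducible Cre recombinase driven by the adiponectin promoter, together with Insr flox/flox, so that the insulin receptor gene is deleted in adipocytes and not in hepatocytes. The control genotype is WT in the sample labels and IR flox/flox in the methods of the study, and this difference could not be settled from the files. All mice were male, were 7 weeks old, received tamoxifen at 100 mg/kg for 5 days and were analysed 3 days after the last dose, so the control also received tamoxifen. Whether a library came from 1 mouse or from several is not given in the sources used here.

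Kinetochores are protein assemblies that form on centromeres and hold the chromosomes to spindle microtubules during mitosis. Their inner layer is built on nucleosomes that contain the histone variant CENP-A and stays on the centromere through the whole cell cycle. The outer layer is assembled as cells enter mitosis and recruits the spindle checkpoint, which delays anaphase until every chromosome is attached. Most hepatocytes of an adult mouse are out of the cell cycle, and many are polyploid. Transcripts of outer kinetochore and checkpoint genes accumulate in the G2 and M phases, and their promoters often carry a cell cycle genes homology region (CHR, TTTGAA), the element bound by the MuvB complexes, and CCAAT boxes, which bind NF-Y. E2F sites are common in the promoters of genes expressed at the entry into S phase.

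Of the 37 members, 31 had a promoter in the RefSeq-derived sequences for GRCm38.p6, which run from 250 bases before to 50 bases after the start site. The stretches below show 6 promoters of members whose level in iFIRKO liver was over 1.5 times that in control liver, chosen because each holds a CHR and a CCAAT box within the stretch. They are written 5′ to 3′ on the strand of the gene, from 90 bases before to 30 bases after the start site, and capitals mark matches to CHR (TTTGAA, or TTCAAA on the other strand), to the CCAAT box (CCAAT, or ATTGG) and to E2F sites.
Cenpf (chr1:189688057-189688176, reverse strand): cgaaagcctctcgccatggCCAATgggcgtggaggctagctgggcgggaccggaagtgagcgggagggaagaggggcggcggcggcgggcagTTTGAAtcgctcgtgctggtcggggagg
Spc25 (chr2:69206184-69206303, reverse strand): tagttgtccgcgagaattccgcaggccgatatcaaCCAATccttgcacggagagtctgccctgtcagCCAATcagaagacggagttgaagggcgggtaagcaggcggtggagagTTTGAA
Ttk (chr9:83834599-83834718, forward strand): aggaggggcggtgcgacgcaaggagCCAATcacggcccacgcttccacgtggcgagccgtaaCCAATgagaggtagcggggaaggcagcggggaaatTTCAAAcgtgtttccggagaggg
Cdca8 (chr4:124936888-124937007, reverse strand): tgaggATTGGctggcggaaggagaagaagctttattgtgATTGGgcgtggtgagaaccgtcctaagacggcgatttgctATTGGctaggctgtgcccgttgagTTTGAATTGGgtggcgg
Cenpw (chr10:30200511-30200630, reverse strand): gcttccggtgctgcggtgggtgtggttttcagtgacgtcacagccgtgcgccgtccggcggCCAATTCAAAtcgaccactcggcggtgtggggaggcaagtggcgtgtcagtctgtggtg
Cenpa (chr5:30666796-30666915, forward strand): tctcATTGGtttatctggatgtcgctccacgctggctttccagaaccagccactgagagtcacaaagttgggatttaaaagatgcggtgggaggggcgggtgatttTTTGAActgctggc

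The stretches below are of members neither 1.5-fold higher nor lower, chosen because each holds an E2F match (TTCCCGC, or GCGGGAA). The contrast in E2F matches with the stretches above therefore follows from the choice. Over the whole promoter, 7 of the 18 such members with a promoter held an E2F site and 7 a CHR. In this stretch, *Cenpm* and *Cenpl*, inner kinetochore genes whose levels were close to equal in both libraries, hold no CHR. *Cenpl* has a CHR further upstream, at position -162. *Spdl1*, a corona gene that did not pass 1.5-fold, also has an E2F match in this stretch, with a CHR and a CCAAT box close by. The network genes *Cenpn* and *Cenpk*, neither of them called, have an E2F match in this stretch as well and are not printed. *Cenpn* holds a CHR at -9, a CCAAT box at -18 and an E2F match at 7, whereas *Cenpk* holds no CHR.
Cenpm (chr15:82244307-82244426, reverse strand): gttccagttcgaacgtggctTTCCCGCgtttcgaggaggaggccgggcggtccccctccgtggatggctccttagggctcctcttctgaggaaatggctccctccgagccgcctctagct
Cenpl (chr1:161070677-161070796, forward strand): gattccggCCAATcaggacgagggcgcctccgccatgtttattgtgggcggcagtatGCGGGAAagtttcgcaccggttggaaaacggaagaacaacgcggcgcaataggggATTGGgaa
Spdl1 (chr11:34833612-34833731, reverse strand): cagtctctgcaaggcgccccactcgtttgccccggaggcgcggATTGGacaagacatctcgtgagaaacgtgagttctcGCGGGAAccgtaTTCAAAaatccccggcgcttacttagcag

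Each value is a normalized read count per gene, deposited on the log2 scale and returned here to the linear scale. The estimated depth was 42276968 reads on genes for the control and 41305480 for iFIRKO, and 1 read pair was worth 1.99 and 2.01 normalized reads. A gene was included, and is called tested below, if either library or both had 41.8 normalized reads or more. The fold change was computed after adding 4.18 normalized reads to both values, which understates the change of low genes. As each genotype had 1 library, no p-value is given, and every difference below compares these libraries and has no replicate check. Intervals given with a log2 fold change are 95% intervals for counting error alone (exact Clopper-Pearson method, from read pairs estimated as above and without the added reads). *Insr* itself had 4246 normalized reads in control against 3692 in iFIRKO liver. Hepatocyte markers were abundant in both libraries, with 8 of 8 expressed. In the iFIRKO library the summed level was lower for 7 Kupffer cell and macrophage markers (log2 ratio -0.61), 5 endothelial markers (-0.49) and 5 B cell markers (-1.18). It was also lower for 5 neutrophil markers (-1.76, 2 of them tested) and 5 T and NK cell markers (-0.90, from 62 and 32 read pairs, none tested). In each of these 2 lists 1 marker was higher, at few read pairs. For 7 erythroid precursor markers, 2 of them tested, the log2 ratio was -0.87, from 95 and 52 read pairs, with *Gata1* at 0 in both. The log2 ratio of summed levels was 0.07 for 5 stellate markers, -0.21 for 5 cholangiocyte markers and -0.10 for the hepatocyte markers. *Alb* made up most of the hepatocyte sum. Log2 fold changes of single hepatocyte markers ran from -0.94 (*Apoa1*) to 0.29 (*Ttr*), with 6 markers lower and 2 higher in the iFIRKO library. *Lep* was at 0 in both libraries, and *Adipoq* and *Plin1* were at 0 in the control and at a single read pair in the iFIRKO library. The part of cell composition in the results below was not tested, and in whole liver more dividing cells and more RNA per dividing cell cannot be told apart.

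In the chromosomal passenger complex 3 of 4 genes were more than 1.5-fold higher in iFIRKO liver, and in the SKA complex 2 of 3. In the corona and in the NDC80 complex 2 of 4 genes were higher, and in the KNL1 complex 1 of 2. *Cenpa* was also higher, as were 2 of the 9 genes tested from the inner centromere-associated network and 1 of 5 checkpoint genes. None of the 4 genes of the MIS12 complex was higher by this limit. Of the 36 members tested, 14 were more than 1.5-fold higher (38.9%), 1 was more than 1.5-fold lower and 21 were neither. Over all 13391 genes tested, 4.46% were called higher and 7.29% lower by the same rule. The median log2 fold change of the members was 0.36, and that of all genes tested was 0.007. Of the members tested, 30 had a log2 fold change above 0, against 51.3% of all genes tested. The counting interval lay wholly above 0 for 18 members, wholly below 0 for 1 and held 0 for 17.

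Of the 14 higher members, *Cenpp*, *Ska1* and *Ska3* reached the minimum in the iFIRKO library only, so the count was repeated for genes that reached it in both libraries. Of the 32 members that did, 11 were more than 1.5-fold higher and 1 was lower, against 3.43% and 5.57% of all genes under that rule. By a stricter limit of 2-fold, 7 of 36 members were higher and none was lower, against 1.56% and 1.99% of all genes tested. *Cenpu*, the remaining member, stayed below the minimum, with 35.8 normalized reads in control against 38.2 in iFIRKO liver.

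**Figure D1:**
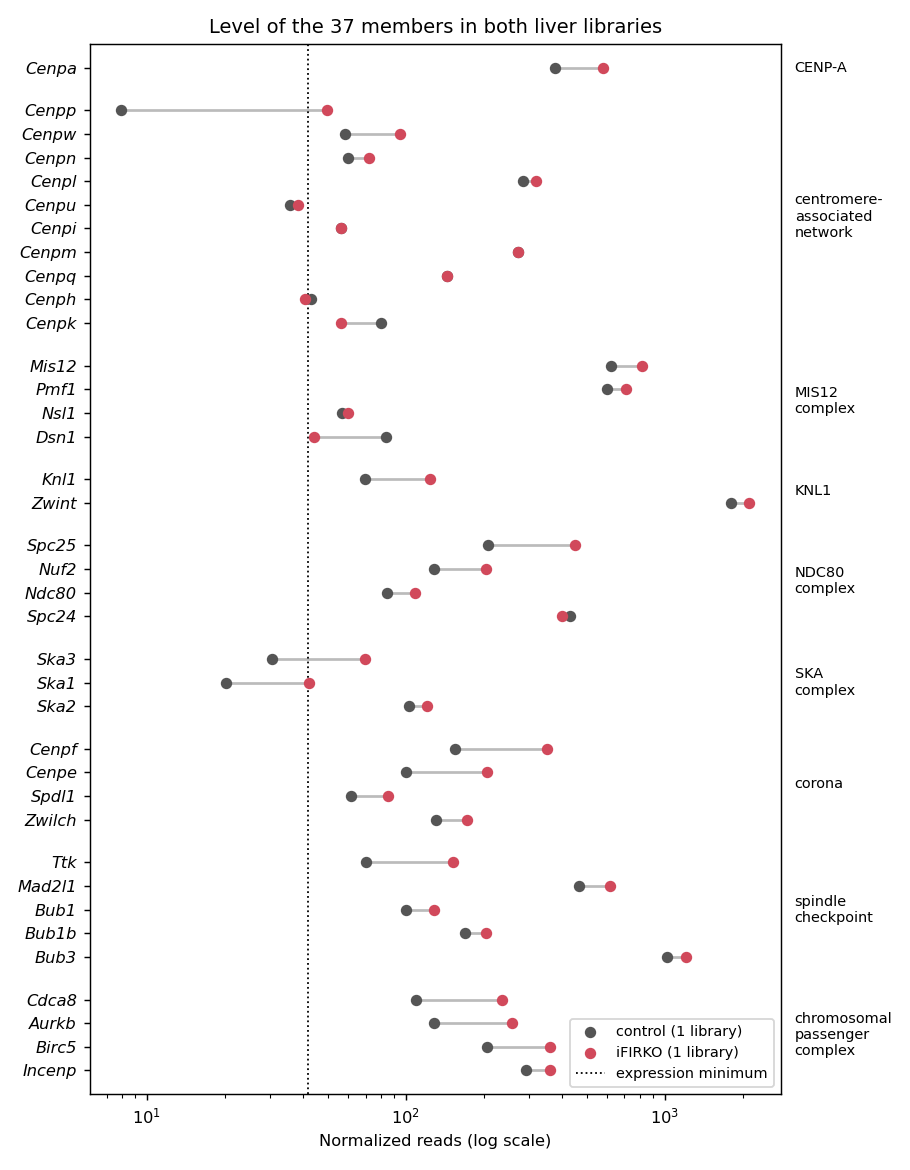
Normalized reads (log axis) of the 37 members in the control (grey) and the iFIRKO library (red), 1 library each, grouped by role. The dotted line is the expression minimum of 41.8 normalized reads. Levels run from 7.95 for *Cenpp* in the control to 2127 for *Zwint* in the iFIRKO library, and the widest gap is that of *Cenpp*. *Cenpe*, *Cenpf*, *Ttk*, *Spc25* and *Cdca8* are also well apart.

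Members were expressed at low levels in this tissue. Their median was 109.7 normalized reads in control against 172 in iFIRKO liver. Compared per kilobase of the principal transcript, the most abundant in the control were *Zwint* (675 normalized reads per kb), *Pmf1* (598) and *Bub3* (462). The least abundant were *Knl1* (8.91), *Ska1* (7.71) and *Cenpp* (6.95).

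At the base of the kinetochore, *Cenpa* encodes the centromeric histone H3 variant. It lies on chromosome 5 of GRCm38 from 30666777 to 30674830, and had 378 normalized reads in control against 577 in iFIRKO liver. The log2 fold change was 0.61 with an interval from 0.34 to 0.88, just above the limit for a call, which is 0.58. It was the most abundant of the 14 higher members per kilobase in both libraries, with 258 and 393 normalized reads per kb.

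The constitutive centromere-associated network is the set of CENP proteins that sits on CENP-A chromatin. Of its 10 genes 9 were tested, 2 were more than 1.5-fold higher and none was lower, with a median log2 fold change of 0.00. The summed level was 1043 normalized reads in control against 1143 in iFIRKO liver, a log2 ratio of 0.13 whose interval of -0.04 to 0.31 includes 0. *Cenpm* (272 and 272 normalized reads), *Cenpq* (145 and 144) and *Cenpi* (56.2 and 56.3) were nearly identical in both libraries. *Cenpl* (285 and 319), *Cenpn* (59.6 and 72.2) and *Cenph* (43.2 and 40.8) differed by less than their counting intervals. *Cenpk* had the lowest fold change of the group, with 80.2 and 56.0 normalized reads (log2 fold change -0.49, interval -1.25 to 0.24).

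The 2 higher genes of this network rested on few reads. *Cenpw*, whose product has a histone fold, had 58.2 normalized reads in control against 95.1 in iFIRKO liver (log2 fold change 0.67, interval 0.02 to 1.44). *Cenpp* had 7.95 and 49.5 normalized reads, an estimated 4 and 25 read pairs. Its log2 fold change of 2.15 was the highest of all members, and its interval from 1.13 to 4.65 was also the widest. Of the exonic bases of *Cenpp* (chromosome 13, 49464023 to 49652785), 12.6% are shared with exons of *Aspn* and *Ippk* on the opposite strand. Whether the counting used strand is not given in the sources used here, so its value is uncertain. The exons of *Cenpu* (26.7%, with *Primpol*) and *Ska2* (10.1%, with *Gm11491*) were also overlapped by more than 10% on the opposite strand, and neither gene was called.

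The MIS12 complex connects the inner network to the outer kinetochore, and its genes differed from each other. *Mis12* had 619 normalized reads in control against 820 in iFIRKO liver (log2 fold change 0.40, interval 0.19 to 0.62), and *Pmf1* had 602 and 712 (0.24, 0.01 to 0.47). *Nsl1* had 56.9 and 59.6 (0.06, -0.72 to 0.86). *Dsn1*, on chromosome 2 from 156995265 to 157007154, was the only member called lower. It had 83.8 normalized reads in control against 44.3 in iFIRKO liver (log2 fold change -0.86, interval -1.73 to -0.14). Within the complex, *Dsn1* took 6.12% of the read pairs in the control library (exact interval 4.45% to 8.19%) and 2.71% in the iFIRKO library (1.71% to 4.07%). Such a share within a library does not depend on the scaling between libraries. It comes from the same read pairs as the fold change, so it is no independent support, and its interval covers counting error alone.

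KNL1 is the scaffold to which BUB proteins bind, and ZWINT is its partner. *Knl1* had 69.5 normalized reads in control against 124 in iFIRKO liver (log2 fold change 0.79, interval 0.20 to 1.46). *Zwint* was far more abundant, with 1806 normalized reads in control against 2127 in iFIRKO liver. The difference of 0.24 on the log2 scale (interval 0.11 to 0.36) was below the limit for a call.

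The NDC80 complex is the main microtubule-binding element of the kinetochore and contains equal numbers of its 4 subunits. *Spc25*, on chromosome 2 from 69193895 to 69206194, had 208 normalized reads in control against 452 in iFIRKO liver (log2 fold change 1.11, interval 0.78 to 1.47). *Nuf2* had 128 and 204 (0.65, interval 0.19 to 1.13). *Ndc80* had 84.4 and 108 (0.34, -0.23 to 0.999), and *Spc24* had 430 and 401 (-0.10, -0.39 to 0.18). *Spc24* and *Spc25*, whose products pair with each other, differed in their balance. *Spc25* made up 24.5% of the read pairs of the complex in the control library (exact interval 20.5% to 28.8%) and 38.9% in the iFIRKO library (34.9% to 43.0%). *Spc24* made up 50.6% (45.7% to 55.4%) and 34.4% (30.5% to 38.4%). As for *Dsn1*, such shares reuse the read pairs of the fold changes, so they are no independent support. Their intervals cover counting error alone. Per kilobase, *Spc24* was the more abundant of the pair in the control (315 against 174 normalized reads per kb) and *Spc25* in the iFIRKO library (379 against 293).

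The SKA complex stabilizes the attachment of NDC80 to microtubules. *Ska3* had 30.5 normalized reads in control against 69.3 in iFIRKO liver (log2 fold change 1.08, interval 0.28 to 2.18). *Ska1* had 20.3 and 42.3 (0.93), from 10 and 21 read pairs, and its interval from -0.06 to 2.34 includes no difference at this depth. *Ska2* had 103 and 121 (0.22, -0.33 to 0.79). The median log2 fold change of the complex was 0.93, and 0.22 where the minimum had to be reached in both libraries, which left *Ska2* alone.

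The corona is the outermost layer, which captures microtubules from the side. *Cenpf*, which encodes a very large coiled-coil protein and lies on chromosome 1 from 189640606 to 189688086, had 156 normalized reads in control against 352 in iFIRKO liver. Its log2 fold change was 1.16 with an interval from 0.79 to 1.59. *Cenpe*, the gene of a kinesin motor that moves chromosomes to the metaphase plate, had 100.1 and 206 (1.01, interval 0.55 to 1.57). The genes of 2 proteins that bring dynein to the kinetochore differed less. *Spdl1*, which encodes the dynein adaptor Spindly, had 61.6 and 85.6 (0.45, -0.21 to 1.21), and *Zwilch*, of the RZZ complex, had 131 and 172 (0.38, -0.08 to 0.89). The summed level of the corona genes was 448 in control against 816 in iFIRKO liver, a log2 ratio of 0.86 (interval 0.62 to 1.10) and the largest of the groups with more than 1 gene.

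The checkpoint genes were all higher in the iFIRKO library, but only *Ttk* passed 1.5-fold. *Ttk* encodes MPS1, the kinase that starts checkpoint signalling, and had 70.2 normalized reads in control against 153 in iFIRKO liver (log2 fold change 1.08, interval 0.54 to 1.76). *Mad2l1*, which encodes the MAD2 protein that inhibits CDC20, had 467 and 613 (0.39, 0.14 to 0.65). *Bub3* had 1026 and 1214 (0.24, 0.07 to 0.42). The intervals of both genes lay above 0, although neither reached the limit for a call. *Bub1*, a kinase, had 100.3 and 128 normalized reads (0.34, -0.18 to 0.94). *Bub1b*, which encodes BUBR1, had 169 and 204 (0.26, -0.16 to 0.70). These 2 related genes had log2 fold changes below that of *Ttk*, and their intervals included 0.

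The chromosomal passenger complex corrects wrong attachments at the inner centromere, and 3 of its 4 genes were more than 1.5-fold higher. *Cdca8*, the gene of borealin, had 109.7 normalized reads in control against 235 in iFIRKO liver (log2 fold change 1.07, interval 0.63 to 1.60). *Aurkb*, which encodes the catalytic kinase Aurora B, had 129 and 257 (0.97, 0.55 to 1.45). *Birc5*, the gene of survivin, had 207 and 361 (0.79, 0.45 to 1.17). *Incenp*, the gene of the scaffold that activates the kinase, had 292 and 360 (0.30, -0.02 to 0.63) and was the only gene of the complex below the limit. The share of *Incenp* in the read pairs of the complex was 39.6% in the control (exact interval 34.6% to 44.8%). It was 29.6% in the iFIRKO library (26.02% to 33.5%). These shares come from the same read pairs as the fold changes, and their intervals cover counting error alone. For the whole complex the log2 ratio of summed levels was 0.72 with an interval from 0.53 to 0.91.

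**Figure D2:**
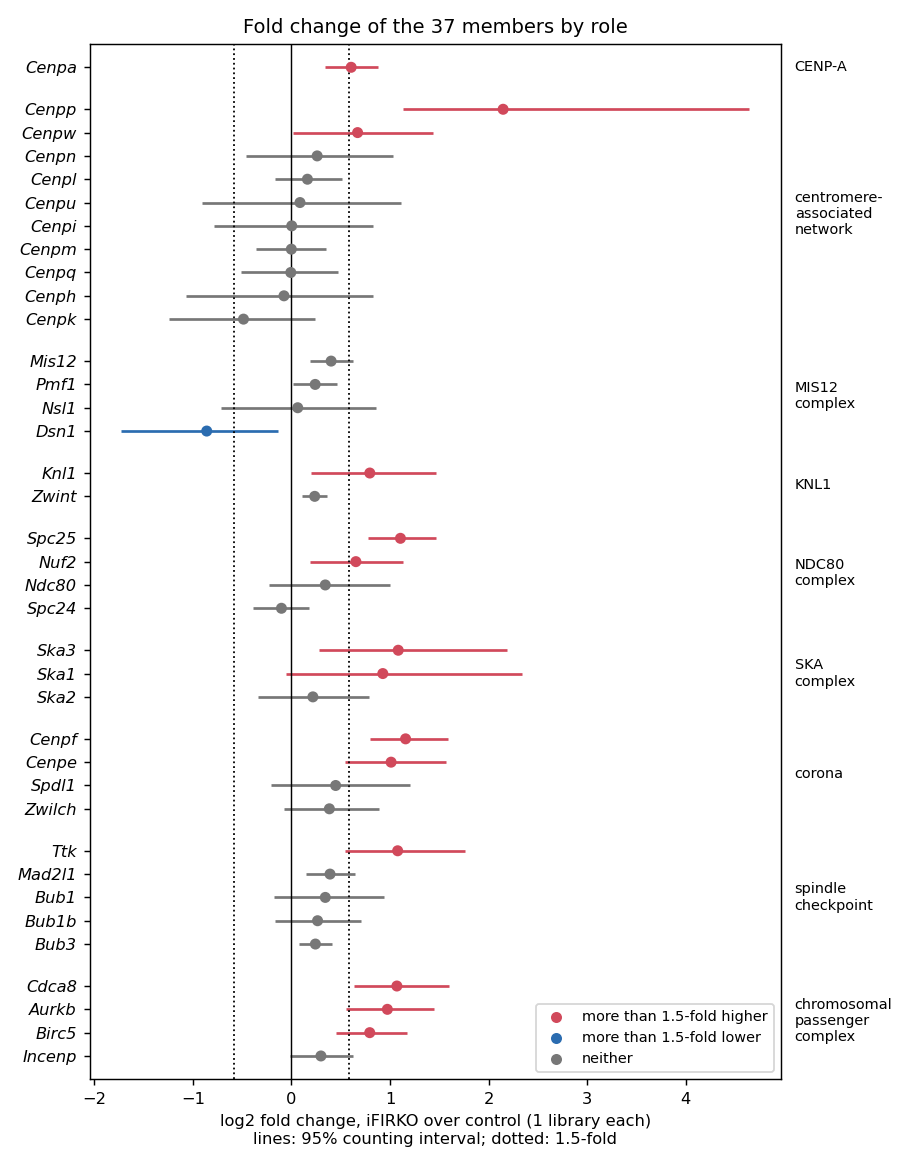
Log2 fold change (iFIRKO over control, 1 library each) of the 37 members by role, with lines for 95% counting intervals and dotted lines at 1.5-fold. Points run from -0.86 (*Dsn1*) to 2.15 (*Cenpp*), and 30 of the 36 members tested lie to the right of 0. These include all genes of the passenger complex, the corona, the checkpoint, the SKA complex and the KNL1 complex.

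The order of the groups by the log2 ratio of summed levels ran from the corona (0.86) and the passenger complex (0.72) through *Cenpa* (0.61), the SKA complex (0.59), the NDC80 complex (0.45), the checkpoint (0.34), the MIS12 complex (0.26) and the KNL1 complex (0.26) to the centromere-associated network (0.13). The interval of the network, which ended at 0.31, did not overlap that of the corona, which began at 0.62, or that of the passenger complex, which began at 0.53. Neighbours in this order had overlapping intervals. Sums follow the most abundant genes of a group, and the median log2 fold changes gave another order. It ran from the SKA complex (0.93), of which only *Ska2* reached the minimum in both libraries, through the passenger complex (0.88), the corona (0.73), *Cenpa* (0.61), the KNL1 complex (0.52), the NDC80 complex (0.50), the checkpoint (0.34) and the MIS12 complex (0.15) to the network (0.00). The sum of the KNL1 group was set by *Zwint*, which took 96.3% of its read pairs in control and 94.5% in iFIRKO liver.

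**Figure D3:**
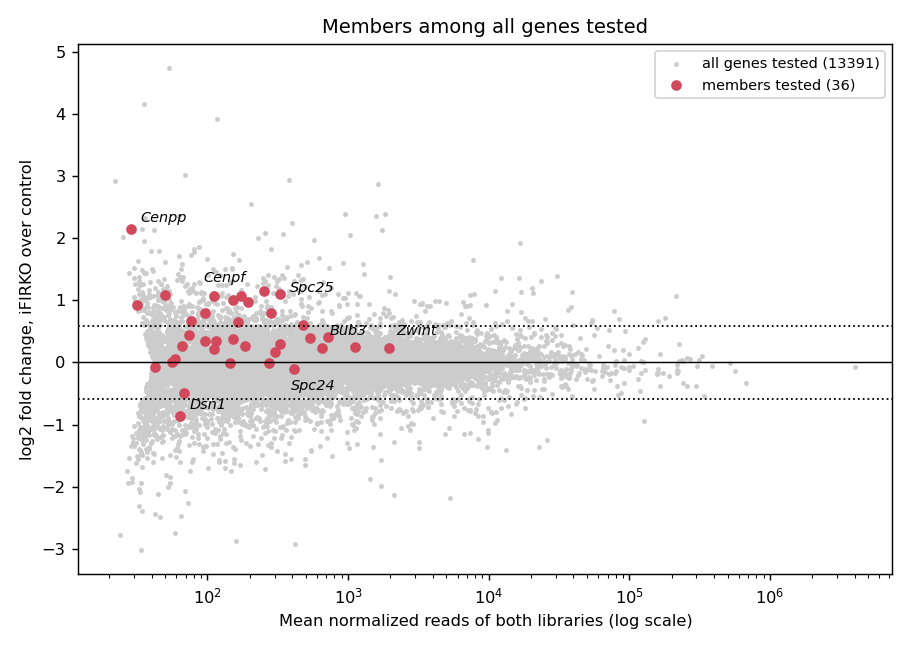
Log2 fold change against the mean normalized reads of both libraries (log axis) for the 13391 genes tested (grey) and the 36 members tested (red), with dotted lines at 1.5-fold. All called members lie in the left part of the plot, where the spread of all genes is also wide, and *Zwint* and *Bub3*, the most abundant members, lie inside the lines.

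The wider machinery of mitosis was described by 3 further lists. Of 25 other kinetochore and centromere genes, 24 were tested. Of these, 8 were more than 1.5-fold higher (33.3%) and none was lower, against 4.46% and 7.29% of all genes tested. Their median log2 fold change was 0.35. The highest were *Nek2*, a centrosomal kinase (238 and 639 normalized reads, log2 fold change 1.41), *Spag5* (84.2 and 215, 1.31) and *Kif2c*, a microtubule-depolymerizing kinesin (82.3 and 205, 1.27). *Ercc6l* was the lowest (67.6 and 44.3, -0.57). Of 15 genes of mitotic control, 9 were higher (60%) and none was lower, against the same shares of all genes tested, with a median of 1.05. These were led by *Ccnb1* (2.07), *Cdc20*, the target of the checkpoint (1.97), and *Plk1*, a kinase that also acts at kinetochores (1.83).

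Of 23 genes of DNA replication 22 were tested, and 3 were more than 1.5-fold higher (13.6%, against 4.46% of all genes tested) and none was lower. The median log2 fold change was 0.03. The higher genes were *Rrm2* (0.74), *Gins2* (0.67) and *Gins3* (0.66). *Mki67*, a marker of cycling cells, had 739 and 1221 normalized reads (0.72, interval 0.53 to 0.91), whereas *Top2a*, the topoisomerase of mitotic chromosomes, had 749 and 836 (0.16, -0.05 to 0.36). The median of the kinetochore members lay between those of the mitotic and of the replication genes. These differences between lists were not tested.

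**Figure D4:**
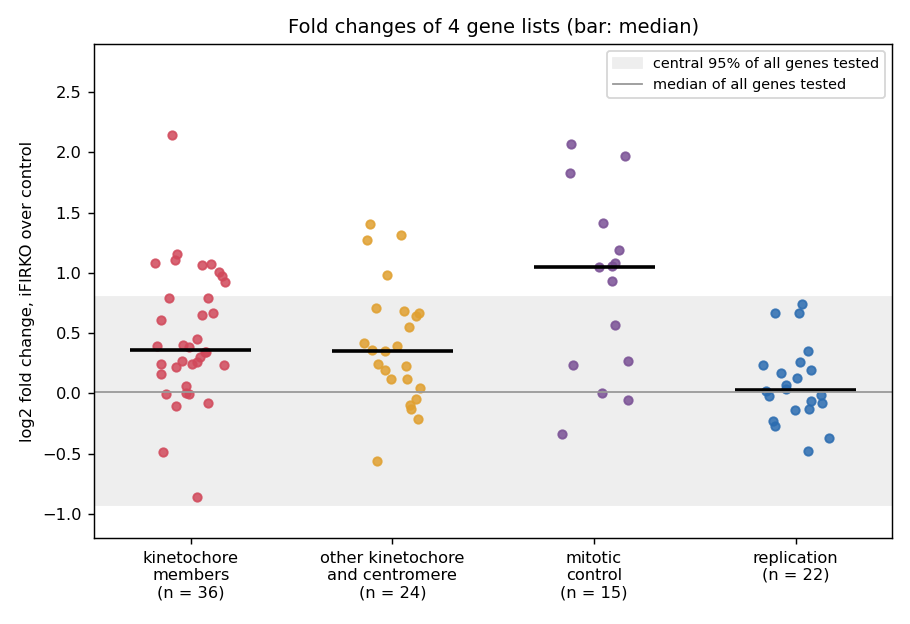
Log2 fold change (iFIRKO over control) of each tested gene in 4 lists, with a bar at the median of each list, and the central 95% (shaded) and the median (thin line) of all genes tested. The medians are 0.36 for the members, 0.35 for other kinetochore and centromere genes, 1.05 for mitotic control and 0.03 for replication genes.

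Promoter elements, which were not part of the rule that chose the members by symbol, were counted. Members and motifs were chosen with earlier results of these data known. A CHR was found for 15 of 31 members, counting either strand. By promoter, it was in 16 of their 34 promoters, against 17.9% of all 32851 promoters in the table. A CCAAT box was found for 23 of 31 members and in 26 of 34 promoters, against 37.4% of all promoters. An E2F site (TTCCCGC or TTGGCGC) was found for 8 of 31 members and in 8 of 34 promoters, against 6.81%. The members with 2 or 3 promoters in the table, *Bub3* and *Cenpk*, were counted as holding a motif if any of them did. A match of letters is not evidence of binding. For *Spc25*, *Birc5*, *Mad2l1* and *Pmf1* the first 25 bases after the RefSeq start were not part of a GENCODE transcript, so positions from the start are less certain for these genes.

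The elements were also counted by the direction of the members, and these small counts were not tested against each other. Of the 12 higher members with a promoter, 8 held a CHR, 7 a CCAAT box and none an E2F site. Of the 18 members that were not called, which include the untested *Cenpu*, 7 held a CHR, 16 a CCAAT box and 7 an E2F site. *Dsn1*, the lower member, held an E2F site and neither of the others. Within 50 bases of the start site on either side, a distance chosen after the positions were seen, a CHR was found in 8 of the 12 higher members, in 5 of the 18 others and in 4.94% of all promoters. The 8 were *Cenpf*, *Spc25*, *Ska3*, *Ttk*, *Cdca8*, *Knl1*, *Cenpw* and *Cenpa*. No CHR lay in the windows of *Cenpp*, *Cenpe*, *Birc5* and *Nuf2*, although these were also higher. Conversely, *Spdl1*, *Ndc80*, *Bub1b*, *Cenpn* and *Bub3* held a CHR near the start site and did not pass 1.5-fold.

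Positions give the first base of a match on the strand of the gene. There is no position 0, and the start site itself is the first positive position. In the printed stretches, the CHR of *Cenpf* is at position 3 and follows a CCAAT box at position -71. In *Ttk* the CHR is at 8 with CCAAT boxes at -28 and -65, and in *Spc25* it is at 25 with CCAAT boxes at -23 and -55. In *Cenpw* and *Cdca8* the CHR and the nearest CCAAT match share a base. In the network genes shown, the E2F match of *Cenpm* is at -70, and that of *Cenpl* is at -33. Among the other lists, a CHR was found for 7 of 23 other kinetochore and centromere genes with a promoter, for 8 of 12 mitotic control genes and for 3 of 18 replication genes. In the same order of lists, a CCAAT box was found for 9 of 23, 11 of 12 and 14 of 18 genes, and an E2F site for 7 of 23, 2 of 12 and 10 of 18.

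**Figure D5:**
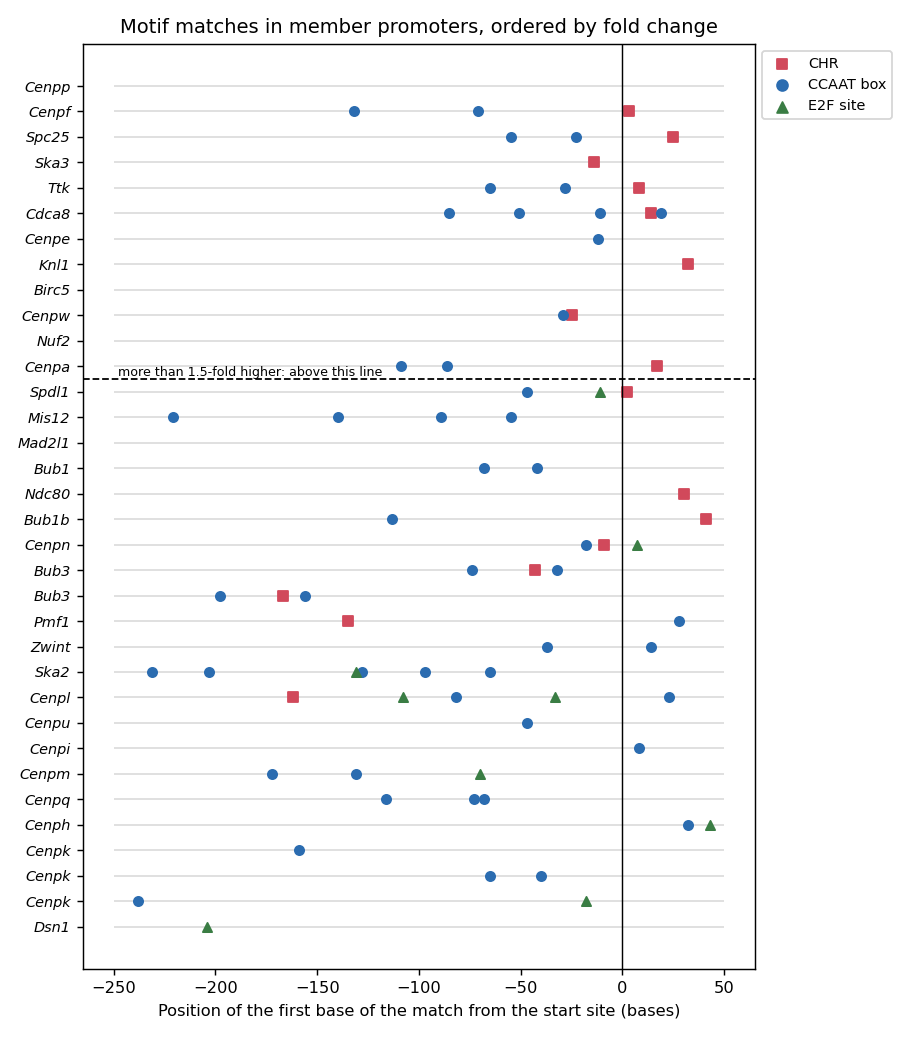
Matches to CHR (squares), the CCAAT box (circles) and E2F sites (triangles) in the 34 promoter windows of 31 members, by position of the first base of the match relative to the start site, with windows ordered from the highest to the lowest fold change. Above the dashed line, the 12 higher members hold 8 CHR matches, all within 50 bases of the start site, and no E2F match.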

How the data were processed

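RNA of the liver was sequenced as stranded mRNA libraries, 1 for control and 1 for iFIRKO, grouped by their labels. The authors deposited a normalized count for each gene symbol as its log2, in 53342 rows. No deposited value was below 0, so no reads and a normalized count of at most 1 cannot be told apart, and 0 was treated as no reads. The submitters' processing notes name mm10. The aligner, the counter and the annotation are not given in the sources used here.

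Analyses used linear values. The commonest value under 12 in each library was taken as 1 read pair. Only 54.6% and 56.8% of such low values were whole reads (tolerance 0.02), so depths and read pairs are estimates and no count test was run. Of rows sharing a symbol, the row with the higher sum was kept. The fold limit of 1.5 follows the methods of the study. Positions, overlaps and principal transcript lengths came from GENCODE M21 on GRCm38, and promoters from RefSeq tables on GRCm38.p6. Of 34 promoter windows, 30 had their first 25 transcribed bases in a GENCODE transcript of the gene. All members are described. From other lists, up to 3 genes with the highest and 3 with the lowest fold change were named, with *Mki67*, *Top2a* and *Insr*. Members, lists and motifs were chosen with earlier results of these data known. Scripts were tested on simulated data, where folds and intervals were checked only for genes with more read pairs than most called members had. Tools were pandas 2.3.3, numpy 2.4.6, matplotlib 3.10.9 and scipy 1.17.1 under Python 3.11.15. Alternatives were other pseudocounts, minimums, scalings, a fold of 2 and summed duplicate symbols.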

Additional observations from a re-analysis of the deposited data

How the results depend on the processing

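The count of higher members was 14 with the plain ratio, without a minimum, with each of the 3 other scalings and with duplicate symbols summed, and it was the same 14 genes. Without a minimum, 1957 of all 21744 genes were called higher. The share of all genes called higher was 4.65% with the plain ratio and 4.47% with duplicate symbols summed. It was 4.35% with median-ratio scaling, 4.40% with a trimmed mean of log ratios and 4.30% with totals that left out the 20 most abundant genes. The count of higher members was 11 with the minimum in both libraries, against 3.43% of all genes. With a pseudocount of 41.8 normalized reads in place of 4.18, 9 members were higher (against 2.77% of all genes under the same setting) and 0 lower, *Cenpa*, *Cenpw*, *Knl1*, *Nuf2* and *Ska1* being lost, and the member median was 0.28. With that pseudocount, 3 other kinetochore and centromere genes (median 0.27) and 1 replication gene were higher, and the mitotic control median was 0.85. With a minimum of 209 normalized reads, which leaves 15 members tested, 6 members (against 2.84% of all genes), 2 other kinetochore and centromere genes (median 0.19) and 1 replication gene were higher, and 0 members were lower. With a fold above 2, 7 members (against 1.56% of all genes), 3 other kinetochore and centromere genes and 0 replication genes were higher, and 0 members were lower. The plain ratio called 1 other kinetochore and centromere gene lower. The member median lay between 0.284 and 0.391 over all settings. Of 299 values of single members under the alternatives, 298 stayed within their counting interval. The exception was *Cenpp*, at 0.88 with the larger pseudocount. All settings reuse the same reads, so this count is no check on the intervals. Other minimums and summed duplicates left the fold change of a member as it was. The scalings shifted it little, so few settings could have moved a value out of its interval. No called member changed direction. The cause of other shifts was not tested. No paired analysis was possible because each genotype has 1 library. Depth limits the members with 50 or fewer read pairs in control liver, whose intervals each span more than 1 on the log2 scale.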
